A study of Mus musculus with 29 samples.

Results

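The hypothalamus of 6-month-old mice was compared with that of mice at postnatal day 5 (P5) by RNA sequencing, with 3 libraries at each age chosen by their age labels from 29 deposited libraries at 9 ages. Libraries of 3 weeks (3 libraries) served to divide each change into an early and a late step. All mice were labelled C57BL/6, wild type and male, with no treatment, and were kept alone under equal light and dark phases. The tissue was taken near the middle of the light phase. The series' text counts as many mice as libraries at each age, so each library was read as 1 mouse. In whole tissue, fewer cells of a type and less RNA per cell cannot be told apart.

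The hypothalamus controls feeding, sleep, body temperature, stress and reproduction, and it also holds the suprachiasmatic nucleus, the brain's main circadian clock. In rodents most hypothalamic neurons are born before birth, while glial cells go on dividing, axons go on growing and oligodendrocytes begin to wrap axons in myelin after birth. Genes of these early tasks are known to be turned down as circuits mature, while genes of myelin, astrocytes, microglia and fast signalling are turned up.

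Total gene counts of the 9 libraries were 28775032 to 39783779, and levels are given as CPM, counts scaled to library size, on which scale 3 counts are 0.0750 to 0.108. Hypothalamic markers were present at both ages, with the orexin gene Hcrt at 82.2, 86.2 and 70.3 CPM at 6 months and 16.5, 11.8 and 12.2 CPM at P5. Several libraries stood apart in ways that bear on the comparison. Against their label, P5 replicates 1 and 2 had Xist, which coats the silenced X chromosome of female cells, at 746 and 791 CPM and the 4 Y-linked genes examined at 0, whereas P5 replicate 3 had Xist at 0.223 CPM and Ddx3y at 55.1 CPM. The 6-month libraries held at most 0.100 CPM of Xist. Sex is therefore partly mixed with age, and P5 replicate 3 was also compared on its own. At 6 months, replicate 34 held 24.7 CPM of Tph2, the serotonin-synthesis enzyme of the raphe, against 1.43 and 0.559 CPM in the others, and replicate 32 held 930 CPM of Ttr, a choroid plexus gene, against 33.7 and 11 CPM. Prkcd, a thalamic marker, stood at 234, 289 and 333 CPM at 6 months and 15.7, 19.7 and 17.4 CPM at P5, and the list of thalamic markers summed to 1477 to 2373 CPM at 6 months and 1403 to 2052 CPM at P5. All 3 libraries of 3 weeks held Bpifa2, a salivary gland gene, at 33.98 to 47.0 CPM, which had at most 0.0327 CPM at 6 months and 0.0279 CPM at P5. Titles of the 3- to 5-week libraries also follow another format than the other titles, so whatever goes with it cannot be told apart from age at the 3-week step.

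Of 16916 genes tested, 10228 (60.5%) differed between 6 months and P5 at an adjusted p below 0.05 by edgeR's quasi-likelihood test, 5123 (30.3%) higher and 5105 (30.2%) lower at 6 months. The median log2 fold change over all genes was 0.02. With so many genes called, a call alone says little, and size was used beside it: 1108 genes (6.55%) were called and changed at least 4-fold, 635 (3.75%) higher and 473 (2.80%) lower. The libraries of both ages did not overlap for 11463 genes (67.8%). Between 3 weeks and P5, 9986 genes (59.0%) were called. From 3 weeks on, 6 months differed from 3 weeks for 4754 genes (28.1%), 2085 higher (12.3%) and 2669 lower (15.8%), of which 158 (0.934%) differed by at least 4-fold. Counts of called list members below are to be read beside these shares over all genes.

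Of the 10 genes with the highest fold change, 6 belong to the myelin list. Opalin (chr19:41061710-41077113, minus strand, GRCm38), a membrane protein of oligodendrocytes, had 51.6, 36.4 and 45.5 CPM at 6 months, against 0, 0.0575 and 0 CPM at P5. That is 4561 counts over the 3 libraries against 2, a ratio of 2270 with an interval of 628 to 18753 that covers counting error only. Klk6, a secreted protease of mature oligodendrocytes, had 1937 counts against 1 (ratio 1928, interval 346 to 76206), and Abhd12b 702 against 1 (ratio 699, interval 125.03 to 27643). Etnppl, an astrocytic enzyme of phospholipid breakdown, had 87.3, 94.7 and 86 CPM at 6 months, against 0.268, 0.144 and 0.223 CPM at P5 (log2 fold change 8.71 ± 0.36 (SE), adjusted p = 2.34e-15). The rest of the 10 highest were Mobp, Fbxw15, Ermn, Mal, Tmem125 and Hapln2.

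Of the 10 lowest genes in the same ranking, 4 belong to the proliferation list. Xist, left out of the ranking, had a log2 fold change of -12.4. H19 (chr7:142575529-142578143, minus strand), an imprinted noncoding RNA of fetal growth, had 0.0750, 0.165 and 0.262 CPM at 6 months, against 13.4, 34.4 and 29.7 CPM at P5 (-7.30 ± 0.46, adjusted p = 1.08e-12). Its level was low in every 6-month library, and the smallest gap was between replicate 34 at 6 months and replicate 1 at P5. Lefty2, an inhibitor of Nodal signalling, had 0.150, 0.0658 and 0.0327 CPM at 6 months, against 10.2, 9.37 and 8.04 CPM at P5 (-6.64 ± 0.55). Hsd11b2, which inactivates corticosterone, had 0.125, 0.197 and 0.0654 CPM at 6 months, against 9.40, 6.27 and 8.04 CPM at P5 (-5.89 ± 0.54). The others were the mitotic genes Ccnb1, Ube2c, Top2a, Mki67 and Pbk, the apelin receptor Aplnr, which marks sprouting vessels, and the keratin Krt19. Absence of overlap was a condition of the ranking, not a result.

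**Figure D1:**
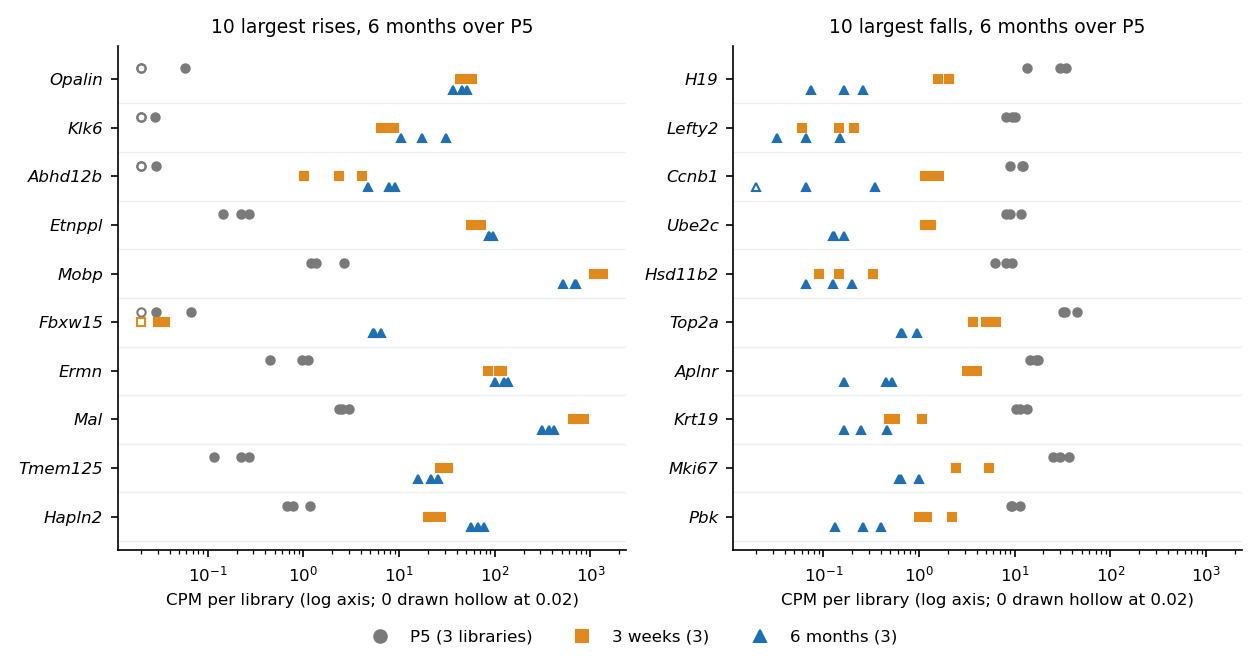
Level, in CPM on a log axis, of the 10 highest and 10 lowest genes in the ranking by fold change at 6 months over P5. Each point is 1 library, with grey circles for P5, orange squares for 3 weeks and blue triangles for 6 months. Hollow symbols mark a level of 0. Fbxw15 is the only gene of the 20 whose 3-week libraries lie with those of P5, while Mobp, Mal and Tmem125 are higher at 3 weeks than at 6 months.

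To separate early from late maturation, the share of the change already present at 3 weeks was computed from mean CPM for 559 genes: those called, changed at least 4-fold, with a mean of at least 5 CPM at the higher age and no overlap. A share of 100% means that the 3-week mean equals the 6-month mean, and above 100% that it lies beyond it. Of these genes, 327 were higher at 6 months and 232 lower, with Ddx3y among the higher and Xist among the lower. The call of Ddx3y was lost without P5 replicate 1 or 2, among others, and that of Xist with P5 replicate 3 as the only P5 library.

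Falls were early. For the 232 lower genes the median share was 92.2%, with an interquartile range of 83.6 to 96.6%, and 208 (89.7%) lay within 25 points of 100%. A further 23 (9.91%) lay between 25 and 75%, 1 was below 25% and 0 were more than 25 points past 100%. Rises were spread out. For the 327 higher genes the median share was 72.2%, with an interquartile range of 52.3 to 94.5%: 21 (6.42%) lay below 25%, 151 (46.2%) between 25 and 75%, 120 (36.7%) within 25 points of 100%, and 35 (10.7%) further past it. Part of this contrast comes from the linear scale, on which the first fall of a gene weighs more than the last. On the log2 scale the median share was 79.8% for lower genes and 86.1% for higher ones, so the order of the medians turns round. The late step was tested too, but not independently. These genes were chosen with the same 6-month libraries, which favours a further change in the same direction. Over all genes, 12.3% were called higher and 15.8% lower at 6 months than at 3 weeks. Between 6 months and 3 weeks, 143 of the 327 higher genes were called higher still and 28 were called lower, and 127 of the 232 lower genes were called lower still and 3 higher.

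**Figure D2:**
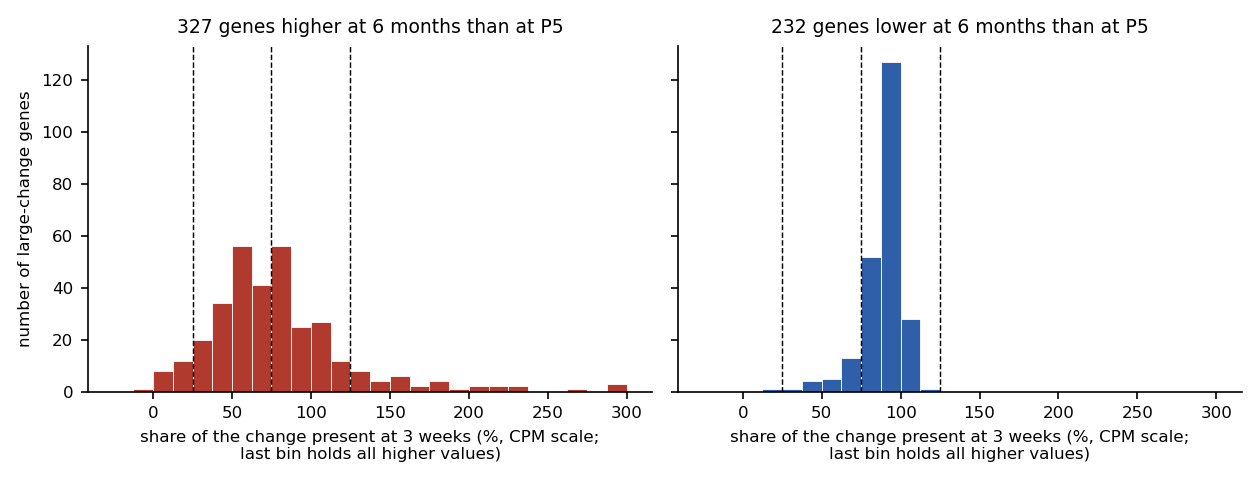
Number of large-change genes by the share of their 6-month change that was present at 3 weeks, in percent of mean CPM, for 327 genes higher at 6 months than at P5 (left) and 232 lower (right). Dashed lines mark 25%, 75% and the point 25 points past 100%. Higher genes spread on both sides of 100%, and lower genes gather just under it.

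Myelin genes rose without exception. All 22 listed genes of myelin and the cells that make it were higher at 6 months than at P5, 21 of them by at least 4-fold, with a median log2 fold change of 4.67, and the list summed to 10170 to 14707 CPM at 6 months, against 442 to 593 CPM at P5. At 3 weeks the sum was higher still, 22215 to 27771 CPM. Against 3 weeks, 12 of the 22 were lower at 6 months and 6 were higher. Of the 21 with a large change, 11 had passed it by more than 25 points at 3 weeks, 4 lay within 25 points of 100%, and 6 between 25 and 75%.

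The genes past their 6-month level at 3 weeks included enzymes and junction proteins of the myelin sheath. Ugt8a, which makes the galactolipids of myelin, had 85.7, 75.3 and 104 CPM at 6 months, against 12.4, 7.42 and 12 CPM at P5 (log2 fold change 3.06 ± 0.19, adjusted p = 1.46e-12). Its 3-week libraries held 281, 228 and 302 CPM, above every 6-month library, and 6 months lay below 3 weeks (-1.61 ± 0.17, adjusted p = 3.41e-07). Its share at 3 weeks was 334%, or 309 to 372% when each library was left out. Cldn11, the claudin of myelin's tight junctions, had 266, 187 and 239 CPM at 6 months, against 7.12, 10.4 and 12.54 CPM at P5 (4.52 ± 0.18). Its 3-week libraries, at 703, 701 and 840.3 CPM, were again the highest (share 334%). Gsn, the actin-severing protein gelsolin, had 80.3, 56.4 and 82.8 CPM at 6 months, against 12.1, 19.2 and 16.4 CPM at P5 (2.20 ± 0.20). It stood at 291, 290.2 and 335 CPM at 3 weeks (share 505%). Fa2h, which hydroxylates the fatty acids of those lipids, had a share of 235%. Cnp and Mog, both of oligodendrocytes, had 272% and 224%. By age, mean Ugt8a ran from 10.6 CPM at P5 through 270.4 at 3 weeks, 215 at 4 weeks, 146 at 5 weeks, 167 at 2 months and 88.3 at 6 months to 72.5 CPM at 24 months.

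Another set of genes of the same cells was still on its way up at 3 weeks. Hapln2, which links hyaluronan at the nodes of Ranvier, had 66.1, 55.9 and 78 CPM at 6 months, against 0.669, 0.776 and 1.17 CPM at P5 (6.23 ± 0.19, adjusted p = 4.04e-18). Its 3-week libraries held 20.3, 22.2 and 27.3 CPM, below every 6-month library, a share of 34% (31 to 37.2% with each library left out). Trf, the iron carrier transferrin that oligodendrocytes make, had 560.1, 405 and 661 CPM at 6 months and 313, 301 and 394 CPM at 3 weeks, 0.69 ± 0.17 apart on the log2 scale (adjusted p = 0.00514). The lipid carrier Apod had a share of 44.9%, and Aspa, which frees acetate from N-acetylaspartate, 57.2%. Klk6 had 38.9%, with 17.2, 10.4 and 30.6 CPM at 6 months and 7.25, 6.54 and 8.84 CPM at 3 weeks. So within the myelin list, the share at 3 weeks ranged from 34.02 to 334%.

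Genes of the oligodendrocyte lineage before myelination were not uniformly higher at 6 months than at P5. Of 14 precursor genes, 9 were higher and 4 lower at 3 weeks than at P5. At 6 months, 4 were higher and 7 lower than at P5, and 1 was higher and 10 lower than at 3 weeks. The course of 8 was up to 3 weeks and down after it, called in both steps, as for 12 myelin genes. Gpr17, a receptor of cells about to myelinate, had 41, 38.5 and 34.7 CPM at 6 months, against 165, 108 and 137 CPM at P5 (-1.84 ± 0.13). At 3 weeks it was above both, at 242, 219.7 and 228 CPM (-2.59 ± 0.14 for 6 months over 3 weeks, adjusted p = 3.18e-12). Pdgfra, the growth-factor receptor of precursors, had 75.8, 72.3 and 66.5 CPM at 6 months and 169.6, 155 and 166 CPM at P5 (-1.19 ± 0.09), with 3 weeks between (108, 105.3 and 98.5 CPM).

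**Figure D3:**
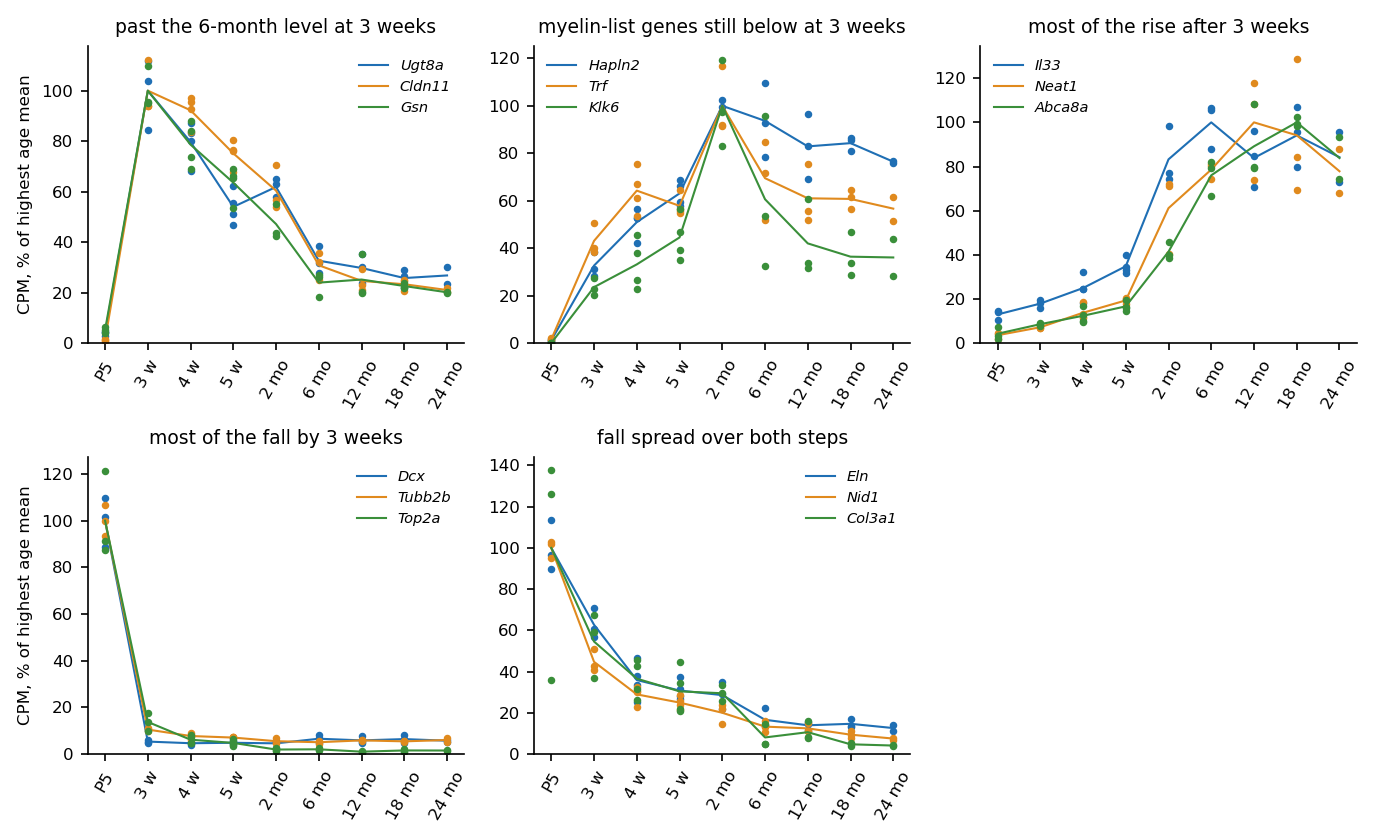
Course of 15 genes over the 9 ages, as CPM in percent of the gene's highest age mean, with points for libraries and lines through the age means, in 5 panels by the time of their change. Ugt8a, Cldn11 and Gsn peak at 3 weeks, Hapln2, Trf and Klk6 at 2 months, and Il33, Neat1 and Abca8a have their highest means at 6, 12 and 18 months.

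In a small set of genes less than 25% of the rise was present at 3 weeks. Of the 21 higher genes with a share below 25%, 19 were called higher at 6 months than at 3 weeks. Their direction in this step follows from the choice by share. Fbxw15 (chr9:109552602-109568262, minus strand), which encodes an F-box protein, had 5.38, 6.45 and 5.46 CPM at 6 months, against 0.0669, 0.0288 and 0 CPM at P5 and 0.0301, 0.0361 and 0 CPM at 3 weeks. These are 578 counts at 6 months, against 3 at P5 (ratio 192, interval 65.3 to 933) and 2 at 3 weeks, so no rise was seen by 3 weeks. Its age means after P5 were 0.0221, 0.219, 0.925, 3.63 and 5.76 CPM at 3, 4 and 5 weeks and at 2 and 6 months.

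Neat1 (chr19:5824708-5845478, minus strand), the noncoding RNA that scaffolds nuclear paraspeckles, had 189, 174 and 188 CPM at 6 months, against 4.75, 10.5 and 9.89 CPM at P5 (4.45 ± 0.30, adjusted p = 1.93e-11). The 3-week libraries were at 16.4, 17.9 and 16 CPM, a share of 4.80%. Il33 (chr19:29925114-29960718, plus strand), a nuclear cytokine that is released as an alarm signal and is made in the brain by astrocytes and oligodendrocytes, had 113, 94.1 and 114 CPM at 6 months, against 15.3, 11.3 and 15 CPM at P5 (2.95 ± 0.18, adjusted p = 1.70e-12). Its 3-week libraries held 21.1, 17 and 19.3 CPM, all above the highest P5 library and far below 6 months (share 5.66%, 4.33 to 6.80% with each library left out). Mean Il33 was 26.7 CPM at 4 weeks, 37.2 at 5 weeks, 89 at 2 months and 107 at 6 months. Abca8a, a lipid transporter of the ABC family, had a share of 6.05%, with 27.6, 22.5 and 26.7 CPM at 6 months, against 0.702, 2.44 and 1.15 CPM at P5.

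The protease inhibitor Serpinb1a had a share of 6.79% (3.83 ± 0.31 for 6 months over P5) and Xdh, which makes uric acid, 6.39% (6.01 ± 0.39). Tnfaip6, which binds hyaluronan, had 18.4% (3.97 ± 0.23), and Xaf1, an interferon-induced gene, 19.995% (2.97 ± 0.20). Syt2, a fast calcium sensor of transmitter release, also had a low share (23.5%), but its 6-month libraries were at 49.4, 41.5 and 98.7 CPM, with the highest value in replicate 34, which also held the raphe marker Tph2. Among falls, Gp1bb, a platelet glycoprotein gene, was alone below 25%: 5.03, 4.77 and 4.81 CPM at 6 months, against 20.9, 17.2 and 20.4 CPM at P5, and 16.6, 16.7 and 17.1 CPM at 3 weeks (share 18.7%). Clic6 also had a share below 25%, and it is a choroid plexus gene with its highest level in the library rich in Ttr.

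Astrocyte and microglia genes rose mostly before 3 weeks. Of 18 astrocyte genes, 15 were higher and 1 lower at 6 months than at P5, and 3 were higher at 6 months than at 3 weeks. Slc1a2, the main glutamate transporter, had 1743, 1592 and 1567 CPM at 6 months, against 406, 362 and 396 CPM at P5 (2.07 ± 0.10, adjusted p = 9.62e-15, share 80.5%). Its ages did not overlap, which also held for 67.8% of all genes tested. Glul, glutamine synthetase, rose in both steps, to 1548, 1336 and 1469 CPM at 6 months, against 267, 321 and 277 CPM at P5, and had a share of 48.7%. The neurotensin receptor gene Ntsr2 was at 127%. Aldh1l1, a folate enzyme used to mark astrocytes, was the gene that was lower (74.1, 61.6 and 70.3 CPM at 6 months, against 113, 117 and 105.4 CPM at P5, -0.70 ± 0.13). The water channel Aqp4 overlapped between the ages, with 198, 163 and 234 CPM at 6 months and 177, 148 and 194 CPM at P5.

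Of 19 genes of homeostatic microglia, 18 were higher at 6 months than at P5 and 0 lower (the other, Fcrls, at a log2 fold change of -0.01). Against 3 weeks, 2 were higher and 1 lower at 6 months, where 12.3% of all genes were higher and 15.8% lower. Tmem119 had 24.1, 20.1 and 21.2 CPM at 6 months, against 3.28, 4.92 and 4.50 CPM at P5 (2.36 ± 0.16), and a share of 118%. Selplg, the ligand of P-selectin, had 35.8, 27.9 and 26.8 CPM at 6 months, against 4.45, 4.95 and 4.02 CPM at P5 (2.75 ± 0.15), and a share of 111%. The fractalkine receptor gene Cx3cr1 rose less (0.81 ± 0.11). Ctss, the lysosomal protease cathepsin S, had 85.4, 70.04 and 74.9 CPM at 6 months, against 12.6, 13.7 and 12.3 CPM at P5 (2.58 ± 0.13), and was also higher than at 3 weeks (0.53 ± 0.12, adjusted p = 0.00159, share 63.3%). Tmem119, Selplg and Ctss were the 3 genes of the list with a large change, a class that by definition holds no overlapping genes. The list summed to 583 to 736 CPM at 6 months, against 255 to 286 CPM at P5.

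Most listed genes of antigen presentation and interferon response were higher at 6 months, some of them again after 3 weeks. Of 18 genes of MHC class I and peptide loading, 12 were higher and 2 lower than at P5, and 7 were higher and 2 lower than at 3 weeks. The sum of this list did not rise, with 1257 to 1273 CPM at 6 months and 1258 to 1297 CPM at P5. At 3 weeks it was 1387 to 1466 CPM. H2-K1, a class I heavy chain, had 45.7, 50.6 and 52.2 CPM at 6 months, against 10.1, 10.7 and 9.16 CPM at P5 (2.31 ± 0.17, share 66.6%). Tap2, which carries peptides into the endoplasmic reticulum, had a share of 56.9%. Counts of the H2 genes are uncertain because their copies are nearly identical. Of 30 interferon-response genes, 23 were higher and 0 lower than at P5, and 6 were higher and 2 lower than at 3 weeks. Ifit3, an antiviral effector, had 12.1, 14.4 and 13.1 CPM at 6 months, against 0.468, 1.15 and 0.670 CPM at P5 (4.09 ± 0.34, share 47%). Of 16 complement genes, 8 were higher and 1 lower than at P5, and 2 were higher and 0 lower than at 3 weeks. C4b had 48.1, 31.5 and 35.6 CPM at 6 months, against 3.31, 6.93 and 4.64 CPM at P5 (2.95 ± 0.35), and a share of 27.4%. Its mean went on to 71.5 CPM at 12 months and 107 CPM at 18 months. C1qa, which starts the classical pathway, had a share of 82%.

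Genes of mature firing rose, some of them again after 3 weeks. Of 23 tested ion channel genes, 14 were higher and 5 lower at 6 months than at P5, and 8 were higher and 2 lower than at 3 weeks. Kcna2, a potassium channel subunit of axons, had 269.8, 278 and 395 CPM at 6 months, against 81, 65.7 and 88.2 CPM at P5 (2.01 ± 0.16, adjusted p = 7.84e-11, share 66.9%). Scn1a, a sodium channel of fast-firing cells, had 209, 231 and 305 CPM at 6 months, against 65.6, 43.7 and 67 CPM at P5 (2.08 ± 0.15, share 57.2%). Kcnc1, a channel for fast repolarization, had 329, 329 and 426 CPM at 6 months, against 134, 128 and 129 CPM at P5, and its 3-week libraries (326, 408 and 359 CPM) lay around the 6-month level. Scn3a, the sodium channel of immature neurons, fell (74, 88.7 and 68 CPM at 6 months, against 239, 215 and 250.2 CPM at P5, -1.61 ± 0.15). Several of the risers were highest in 6-month replicate 34, among them Scn4b (117, 54.9 and 172 CPM) and Kcna1 (156, 126 and 222 CPM). Of the thalamic markers, 9 of 18 were higher and 2 lower at 6 months than at P5. The cortex and hippocampus list (4 of 16 higher, 3 lower) summed to 858 to 1188 CPM at 6 months and 419.7 to 569.7 CPM at P5, without overlap. Most of each sum at 6 months was 1 member, Camk2a, with a mean of 722 CPM at 6 months and 192 CPM at P5. The median log2 fold change of the list was -0.17. The part of other brain regions in these rises was not tested.

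Subunits of transmitter receptors moved in both directions. Of 37 glutamate, GABA and glycine receptor genes, 13 were higher and 16 lower at 6 months than at P5, not far from the shares over all genes (30.3% higher, 30.2% lower). Among NMDA receptor genes, Grin2c had 46.5, 52.6 and 55.3 CPM at 6 months, against 4.15, 3.88 and 3.02 CPM at P5 (3.81 ± 0.19). Grin2a had 7.25, 8.69 and 9.0 CPM at 6 months, against 2.68, 3.51 and 3.91 CPM at P5 (1.30 ± 0.31, adjusted p = 0.000761). Grin2b, the juvenile partner, fell to 48.4, 57.4 and 45.1 CPM at 6 months, against 88.4, 88.1 and 87.9 CPM at P5 (-0.81 ± 0.32, adjusted p = 0.0331), and Grin3a fell by more (-1.88 ± 0.11). The ages did not overlap for any of these 4 genes, which also held for 67.8% of all genes tested. The call of Grin2b was lost without any 1 of P5 replicates 1 to 3 or of 6-month replicates 32 and 34 (adjusted p = 0.0590 to 0.0953 by edgeR), and those of Grin2b and Grin2a with P5 replicate 3 as the only P5 library (adjusted p = 0.154 and 0.0619).

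Among GABA-A receptor genes, Gabra5 fell to 38.6, 43.2 and 35.7 CPM at 6 months, against 103, 96.3 and 103 CPM at P5 (-1.36 ± 0.11, share 101%). Gabra2 overlapped between the ages (-0.11, adjusted p = 0.519). The chloride exporter Slc12a5 (KCC2), whose rise turns GABA inhibitory in young neurons, was nearly at its 6-month level at P5 already: 729, 731 and 822 CPM at 6 months, against 676, 599.7 and 682 CPM at P5 (0.22 ± 0.10, adjusted p = 0.0485), and the call was lost without any 1 of these 6 libraries (adjusted p = 0.0507 to 0.197 by edgeR). The importer Slc12a2 (NKCC1), which glia also make, was higher at 6 months (167, 138 and 186 CPM) than at P5 (53, 57.4 and 58.9 CPM; 1.53 ± 0.14).

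At synapses 13 of 32 genes were higher and 8 lower, again not far from the shares over all genes. With P5 replicate 3 as the only P5 library, 7 were higher. Snap25, a SNARE protein of transmitter release, had 1478, 1561 and 2038 CPM at 6 months, against 409, 335 and 392 CPM at P5 (2.16 ± 0.14, share 54.9%). Its partner in the same complex, the syntaxin gene Stx1a, fell to 41.7, 56.4 and 53.1 CPM, against 253, 201 and 244 CPM at P5 (-2.21 ± 0.17), and was at 107, 123 and 117 CPM at 3 weeks, so its fall ran through both steps (share 64.3%). Of 18 genes of the perineuronal net, the lattice around fast-firing neurons, 4 were higher and 9 lower (median log2 fold change -0.23). The link protein gene Hapln4 rose to 141, 136 and 177 CPM, against 6.59, 4.80 and 5.67 CPM at P5 (4.74 ± 0.15). Ncan, a proteoglycan of the young matrix, fell to 111, 103 and 96.8 CPM, against 846, 661 and 715 CPM at P5 (-2.84 ± 0.13). Mean Acan was 4.27 CPM at 6 months and 3.67 CPM at P5, and mean Hapln1 was 9.86 and 8.50 CPM.

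Clock genes were higher at 6 months, with tissue of both ages labelled as taken at about the same hour. Of 19 genes, 16 were higher and 1 (Nfil3) lower at 6 months than at P5, with a median log2 fold change of 1.67, and 9 were higher and 1 lower than at 3 weeks. Tef, a transcription factor of the PAR bZIP family that clock proteins drive, had 299.3, 291 and 279 CPM at 6 months, against 70.7, 74.9 and 73.9 CPM at P5 (1.99 ± 0.08, adjusted p = 1.05e-16). The 3-week libraries (260.4, 249 and 237 CPM) lay below every 6-month library (share 81%). Bhlhe41, a repressor of the clock loop, had 70.7, 65.4 and 79.4 CPM at 6 months, against 13.5, 15.6 and 15.8 CPM at P5 (2.26 ± 0.09), and a share of 80.8%. Nr1d2, the nuclear receptor REV-ERB beta, had 129.6, 136 and 145 CPM, against 37.8, 38.3 and 43.3 CPM at P5 (1.78 ± 0.08, share 57.7%). Arntl (BMAL1), which drives the loop, overlapped between the ages (18, 22.3 and 20.4 CPM at 6 months, against 25.2, 21.4 and 24.9 CPM at P5). CLOCK and BMAL1 bind the E-box CACGTG. The 250 bases before the start of Tef (both start sites) and Bhlhe41, from RefSeq on GRCm38.p6, are shown because each holds it, in capitals:
Tef (chr15:81802423-81802672, plus strand): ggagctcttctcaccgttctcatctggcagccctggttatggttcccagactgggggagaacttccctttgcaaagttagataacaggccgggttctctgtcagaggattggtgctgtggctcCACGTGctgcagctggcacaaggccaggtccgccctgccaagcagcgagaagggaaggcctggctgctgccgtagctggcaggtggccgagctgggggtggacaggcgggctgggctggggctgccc
Tef (chr15:81811164-81811413, plus strand): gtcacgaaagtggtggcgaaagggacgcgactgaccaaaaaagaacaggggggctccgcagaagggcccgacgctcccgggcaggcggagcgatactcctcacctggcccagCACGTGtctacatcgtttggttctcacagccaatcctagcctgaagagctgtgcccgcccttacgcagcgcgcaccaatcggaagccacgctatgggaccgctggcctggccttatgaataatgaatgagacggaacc
Bhlhe41 (chr6:145865421-145865670, minus strand): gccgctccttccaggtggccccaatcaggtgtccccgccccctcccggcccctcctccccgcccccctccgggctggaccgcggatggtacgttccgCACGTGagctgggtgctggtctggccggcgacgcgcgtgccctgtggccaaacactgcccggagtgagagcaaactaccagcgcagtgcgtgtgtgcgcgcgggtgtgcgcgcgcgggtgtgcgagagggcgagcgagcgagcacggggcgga
An E-box was found in 6 of 23 windows of the clock list (26.1%; 5 of 17 genes with a window), against 6.02% of 32851 windows of all genes. The motif is a palindrome, so both strands were covered.

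Hypothalamic peptide genes differed by peptide. Of 30 tested, 8 were higher and 3 lower at 6 months than at P5, and 0 were higher and 5 lower than at 3 weeks. Over all genes, 30.3% were higher and 30.2% lower than at P5, and 12.3% higher and 15.8% lower than at 3 weeks. So the counts higher than at P5 and lower than at 3 weeks were near those shares. Oxt, oxytocin, had 70.1, 132 and 83.7 CPM at 6 months, against 16.7, 17.6 and 13.3 CPM at P5 (2.58 ± 0.48, adjusted p = 8.66e-05), and 105.1, 195 and 119.9 CPM at 3 weeks. Hcrt and Tac2, the neurokinin B gene of the reproductive axis, had passed their 6-month means at 3 weeks (shares 156% and 142%), but their 6-month and 3-week levels did not differ at the threshold (adjusted p = 0.473 and 0.198). Cartpt, a peptide that curbs feeding, had 45.1, 38.9 and 68.8 CPM at 6 months, against 5.82, 10.3 and 6.17 CPM at P5 (2.77 ± 0.25). Npy, which drives feeding, fell to 21.4, 12.2 and 9.65 CPM at 6 months, against 54.4, 40.8 and 26.6 CPM at P5 (-1.48 ± 0.30, adjusted p = 0.000221), and was highest in P5 replicate 1. With P5 replicate 3 as the only P5 library its call was lost (-0.88, adjusted p = 0.0649 by edgeR). Gnrh1, Kiss1, Avp, Sst, Crh, Trh, Ghrh and Agrp were not called. These genes are made in small nuclei, and the part of dissection in their levels was not tested.

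The transcription factors that pattern the hypothalamus were lower. Of 32 genes, 20 were lower and 0 higher at 6 months than at P5. The count was 11 with P5 replicate 3 as the only P5 library. Nkx2-4 had 1.45, 1.74 and 1.54 CPM at 6 months, against 6.55, 8.25 and 5.92 CPM at P5 (-2.13 ± 0.32), with the 3-week mean between (2.86, 7.77 and 4.34 CPM, share 36%). Isl1, of arcuate and other neurons, had 18.8, 15.4 and 8.02 CPM, against 38.5, 42.3 and 23.1 CPM at P5 (-1.29 ± 0.23). Among genes of the reproductive axis, Mkrn3, an imprinted brake on puberty, fell to 1.20, 1.58 and 1.47 CPM, against 46.5, 50.04 and 47.7 CPM at P5 (-5.09 ± 0.24, adjusted p = 5.99e-15), with 94.8% of the fall present at 3 weeks.

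All 25 proliferation genes fell, 17 of them by at least 4-fold, and the list summed to 124 to 133 CPM at 6 months, against 380 to 493 CPM at P5. Against 3 weeks, 11 were lower at 6 months and 0 higher. Top2a, which untangles chromosomes, had 0.950, 0.658 and 0.654 CPM at 6 months, against 32, 44.4 and 33.3 CPM at P5 (-5.57 ± 0.31, adjusted p = 8.26e-14). Its 3-week libraries (6.38, 5.06 and 3.69 CPM) lay apart from both (share 88%; -2.72 ± 0.29 for 6 months over 3 weeks, adjusted p = 3.37e-07). Mki67, the antigen Ki-67 of cycling cells, had 1.0, 0.625 and 0.654 CPM at 6 months, against 29.8, 37.2 and 25 CPM at P5 (-5.31 ± 0.33, share 91%). Ube2c, which marks cyclins for breakdown, had 0.125, 0.165 and 0.131 CPM, against 8.89, 11.6 and 8.10 CPM at P5 (-6.06 ± 0.35, share 88.4%). Ccnb1, cyclin B1, had 0.350, 0 and 0.0654 CPM, against 12, 12.3 and 8.85 CPM at P5 (-6.13 ± 0.62). Over the 25 genes, the median log2 fold change was -2.14 for 3 weeks over P5 and -0.59 for 6 months over 3 weeks. The late fall of Top2a was larger than the median, and those of Ube2c (-3.11 ± 0.37) and Ccnb1 (-3.16 ± 0.64) were larger still. They rest on 14 and 16 counts over the 6-month libraries. On the log2 scale the shares of Ube2c and Ccnb1 at 3 weeks were 50.2% and 44.2%. The promoters of these 3 genes (250 bases before the start, RefSeq, GRCm38.p6) are shown because they carry the CCAAT boxes common to cell-cycle genes. Capitals mark CCAAT or ATTGG (the CCAAT box on either strand) and TTTGAA or TTCAAA, the cell cycle homology element:
Ube2c (chr2:164769679-164769928, plus strand): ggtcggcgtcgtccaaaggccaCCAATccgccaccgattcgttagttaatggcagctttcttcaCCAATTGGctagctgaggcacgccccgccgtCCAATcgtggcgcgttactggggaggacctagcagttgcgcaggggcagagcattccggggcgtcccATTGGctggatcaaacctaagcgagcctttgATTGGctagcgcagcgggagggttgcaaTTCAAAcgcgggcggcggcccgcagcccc
Top2a (chr11:99024190-99024439, minus strand): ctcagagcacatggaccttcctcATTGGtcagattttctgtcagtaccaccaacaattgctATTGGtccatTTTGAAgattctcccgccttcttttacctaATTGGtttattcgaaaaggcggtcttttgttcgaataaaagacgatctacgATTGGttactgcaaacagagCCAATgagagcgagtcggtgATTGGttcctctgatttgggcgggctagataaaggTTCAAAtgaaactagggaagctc
Ccnb1 (chr13:100786487-100786736, minus strand): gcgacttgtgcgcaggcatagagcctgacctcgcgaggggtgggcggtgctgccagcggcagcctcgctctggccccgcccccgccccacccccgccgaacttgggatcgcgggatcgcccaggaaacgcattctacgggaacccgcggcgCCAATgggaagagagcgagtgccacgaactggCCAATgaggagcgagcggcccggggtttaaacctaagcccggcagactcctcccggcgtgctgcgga
CCAAT was counted 6, 6 and 2 times in Ube2c, Top2a and Ccnb1, where a CCAAT and an ATTGG that share bases in Ube2c count separately, and TTTGAA 1, 2 and 0 times. A CCAAT box was found in 21 of 23 windows of the list (91.3%; 20 of 22 genes with a window), against 33.8% of all 32851 windows, and TTTGAA in 7 of 23 (30.4%), against 16% of all windows.

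Genes of immature neurons and growth cones fell early. Of 24, 21 were lower and 0 higher at 6 months than at P5, 12 by at least 4-fold, and all 12 large falls had a share within 25 points of 100%. Against 3 weeks, 10 were lower at 6 months, all of which had also fallen by 3 weeks, and 1 was higher. Dcx, the microtubule protein of migrating neurons, had 28.1, 32.2 and 18.9 CPM at 6 months, against 406, 439 and 355 CPM at P5 (-3.92 ± 0.25, adjusted p = 3.96e-12), and its 3-week libraries (23.7, 21.1 and 19.8 CPM) lay at the 6-month level (share 101%). Sox11, a factor of new neurons, followed it (-2.27 ± 0.13, share 94.4%). Tubb2b, a tubulin of growing axons, had 122, 116 and 99.999 CPM at 6 months, against 2199.9, 2355 and 2066 CPM at P5 (-4.29 ± 0.14), and fell again after 3 weeks (-1.04 ± 0.13, adjusted p = 1.85e-06). Marcksl1, an actin regulator, had a lower share (79.7%) and 252, 283 and 255 CPM at 3 weeks. Of 30 axon guidance genes, 22 were lower and 2 higher, with 1 large fall, the receptor Ephb2 (24.6, 28.4 and 27.9 CPM at 6 months, against 113, 123 and 108 CPM at P5, -2.08 ± 0.09). Robo2, a receptor of Slit, had a log2 fold change of -1.71 ± 0.13.

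Progenitor and fetal genes fell too. Of 16 genes of radial glia and progenitors, 11 were lower and 2 higher. Fabp7, a fatty acid carrier of radial glia, had 32.4, 36 and 40.4 CPM at 6 months, against 835, 746 and 759 CPM at P5 (-4.43 ± 0.26, share 95.6%). Of 18 fetal RNA-binding and growth genes, 13 were lower and 3 higher. Hmga2, a chromatin protein of stem cells, had 0 counts at 6 months, against 77 at P5, which makes it at least 25.8-fold lower by a floor of 3 counts over the group. Dlk1, an imprinted gene of that list, was higher instead (215, 175 and 183 CPM at 6 months, against 50.2, 58.8 and 47.3 CPM at P5, 1.87 ± 0.21). Dnmt3a, which lays down DNA methylation in young neurons, fell to 98.2, 110.4 and 96.1 CPM, against 441, 449.8 and 471 CPM at P5 (-2.16 ± 0.14, share 81.8%).

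Matrix genes of vessels and fibroblasts fell, many of them again after 3 weeks. Of 27 genes of basement membranes and fibrillar collagen, 18 were lower and 3 higher at 6 months than at P5, and 14 were lower and 1 higher than at 3 weeks, while all 5 large falls had a share between 25 and 75%. Eln, elastin, had 11.3, 11.7 and 19 CPM at 6 months, against 75.5, 95.5 and 80.9 CPM at P5 (-2.59 ± 0.22, adjusted p = 4.44e-10). Its 3-week libraries (47.5, 59.3 and 51.1 CPM) overlapped neither (share 44.7%). Nid1, which ties laminin to collagen IV, had 12.1, 9.74 and 14.5 CPM, against 86.4, 92.2 and 93.4 CPM at P5 (-2.91 ± 0.18, share 63.7%). Col4a1, of the collagen IV network, had a log2 fold change of -1.76 ± 0.17 and -1.17 ± 0.17 against 3 weeks. Col3a1 had 1.65, 1.65 and 5.07 CPM, against 12.47, 47.4 and 43.5 CPM at P5, where replicate 1 was lower than the others, and a share of 49.4%. Sparc, a matrix protein that glia also make, rose (1423, 1528 and 1636 CPM at 6 months, against 588, 583 and 574 CPM at P5) and was highest at 3 weeks.

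Enzymes of cholesterol synthesis fell as well. Of 25 genes, 16 were lower and 3 higher at 6 months than at P5, and 18 were lower and 0 higher than at 3 weeks. Of these, 11 fell in both steps and 6 rose to 3 weeks and fell after it. Sqle, the squalene oxidase, had 74.9, 90.8 and 96.1 CPM at 6 months, against 192, 199.9 and 189 CPM at P5 (-1.15 ± 0.08, adjusted p = 9.91e-12), and 118, 120.4 and 131 CPM at 3 weeks. No 6-month library of Sqle reached a P5 library, and 67.8% of all genes tested likewise had no overlap between the ages. Cyp46a1, through which neurons clear cholesterol, was higher (1.31).

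**Figure D4:**
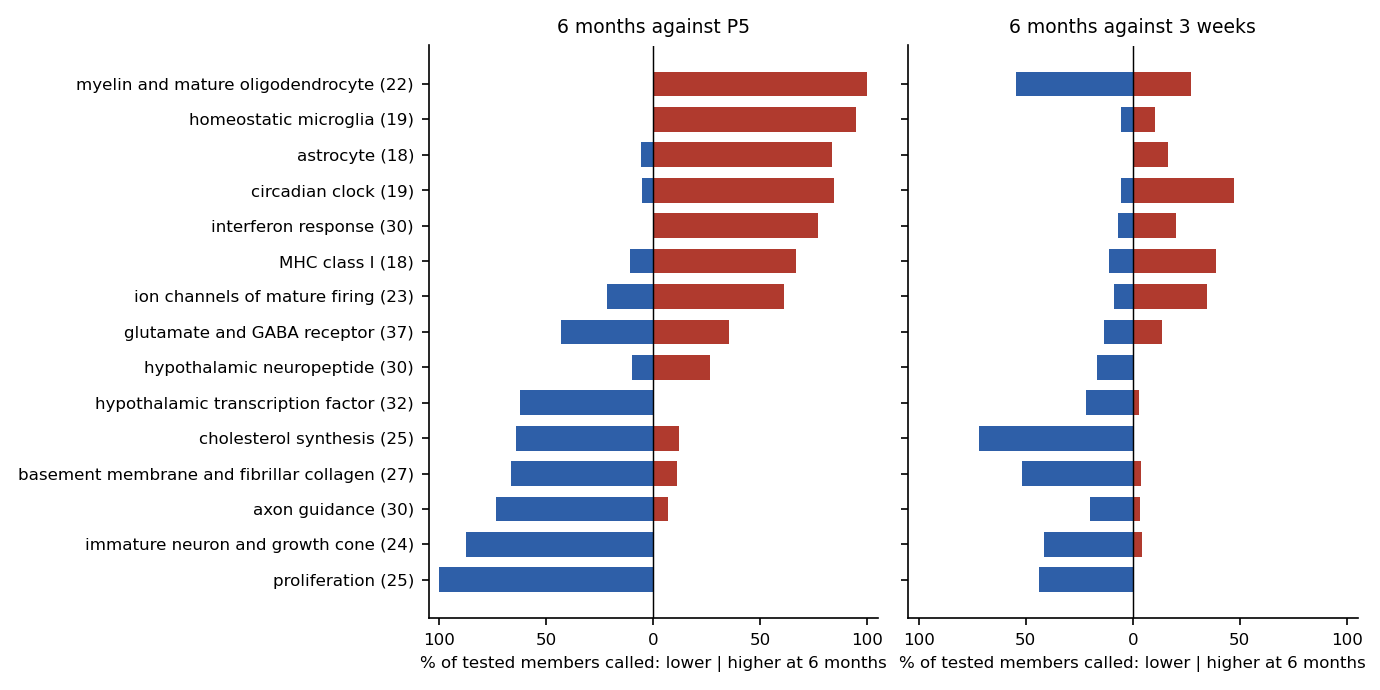
Share of tested members called lower (blue, left of 0) or higher (red, right of 0) at 6 months than at P5 (left panel) and than at 3 weeks (right panel), in percent, for 15 gene lists with their number of tested members. Myelin genes are all higher than at P5 and mostly lower than at 3 weeks, while matrix and cholesterol genes are mostly lower in both panels.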

How the data were processed

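The submitters' processing notes name the aligner HISAT2 (2.1.0), the build GRCm38 (mm10) and the counter HTSeq (0.9.1). Each deposited file holds raw counts for 24499 gene symbols. The 5 HTSeq summary lines, 26.1 to 30.3% of the total in the 9 libraries used, were removed. Neither annotation nor strand setting is stated there, which leaves counts of overlapping, antisense and near-identical genes uncertain. Gene positions are from GENCODE (GRCm38).

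Counts were scaled with TMM, filtered with filterByExpr by age (16916 genes) and fitted with edgeR 4.0.16 (R 4.3.3, robust quasi-likelihood, two-sided) with 1 mean per age over 28 libraries. Library replicate 5 at 24 months (2377580 counts in 1385 genes) was left out. P-values were adjusted over all genes by the Benjamini-Hochberg method. CPM were computed from the raw counts with TMM-scaled library sizes, and log2 fold changes carry 1 SE. A p-value weighs the difference between ages against a spread between libraries that was estimated over all 28, not only over the libraries compared. Intervals of count ratios are exact 95% intervals.

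The 45 gene lists (961 genes, 960 found) and the genes chosen were made with earlier results of these data known. Named genes were the 10 highest and 10 lowest fold changes, up to 4 called members per list by smallest p, a panel of 62, and up to 8 per direction with a share at 3 weeks below 25% or more than 25 points past 100%. Some of these are not described, and further list members are named as examples, chosen after their values were seen. On simulated counts of 16916 genes for 6 months against P5, 47 of 74 planted 1.5-fold changes (63.5%), 54 of 65 2-fold (83.1%) and 60 of 61 4-fold changes (98.4%) were found. There were 7 false calls. Only the planted genes changed there, each with a mean of at least 1 CPM, whereas 60.5% of genes were called in the data. The rates found therefore do not carry over to this comparison. Alternatives were DESeq2 1.42.0, other scaling, filters and share cutoffs, and leaving out libraries.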

Additional observations from a re-analysis of the deposited data

How the results depend on the processing

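With all 29 libraries fitted, 524 genes were called at 6 months against P5 (252 higher, 272 lower), 453 of them at least 4-fold, and 340 at 3 weeks against P5 and 7 at 6 months against 3 weeks. That library's counts cover 1385 genes, and 152 of the 210 called named genes lose their call. Apart from that fit, 199 of the 210 kept their call in every alternative. Leaving out each library gave 9506 to 9592 genes at 6 months against P5 (4701 to 4786 higher, 4720 to 4862 lower), 1076 to 1114 at least 4-fold, 9182 to 9390 at 3 weeks against P5 and 3248 to 4059 at 6 months against 3 weeks. With P5 replicate 3 as the only P5 library, assumed to vary like the other ages, 7948 and 1095 were called, and 7742 at 3 weeks. DESeq2 called 10308 and 1116, and 10041 and 5095 in the steps. Of list counts, 65 of 90 stayed within 1.5 times in every alternative other than all 29 libraries.

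Shares of large-change genes moved with their definition. Higher genes at 75% or more (main 47.4%) came to 72.5% on the log2 scale, 41.9% with library totals, 55.3% from 2-fold, 38.1% from 8-fold, 41.0% from 1 CPM, and 40.4 to 50.5% leaving out libraries. Those below 25% (main 6.42%) came to 1.53% on the log2 scale, 12.3% from 1 CPM and 5.44 to 7.67% leaving out libraries. Lower genes at 75% or more (main 89.7%) came to 59.1% on the log2 scale, 75.3% from 2-fold, 96.8% from 8-fold and 88.8 to 90.7% leaving out libraries, and those below 25% (main 0.431%) to 2.1% from 2-fold, 1.29% on the log2 scale, 0% from 8-fold and 0 to 0.858% leaving out libraries. The cause was not tested.

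Named genes that changed sign were not called: Kiss1 (log2 1.02), Ghrh (0.38) and Sst (0.38) with P5 replicate 3 alone, and, leaving out each library, Sst (-0.40 to 0.061), Hapln1 (-0.011 to 0.47, the lowest without 6-month replicate 34) and Ttr (-2.28 without 6-month replicate 32 to 7.11 without P5 replicate 2). Without replicate 34, Tph2 lost its call (0.81, adjusted p = 0.281 by edgeR). No paired analysis was possible for 6 months against P5 because these ages share no replicate number. For 3 weeks and P5, deviations from the age mean of log2 CPM correlated at 0.0416, 0.131 and 0.0535 between same-numbered libraries. Libraries of different number were not compared, so these values cannot tell whether the numbers pair them. A replicate block on these 6 libraries gave 10377 calls, and 10040 without it, a fit chosen after seeing the data.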

Other observations

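Genes of metabolism and hormone response that the comparison also covers are given here as values. Of 24 genes of glycolysis and energy supply, 15 were higher and 4 lower at 6 months than at P5, by edgeR's test. Eno2, the neuronal enolase, had 965, 914 and 977 CPM at 6 months, against 285, 231 and 272 CPM at P5 (1.86 ± 0.08), while Ldha, which makes lactate, was lower (-0.87). Of 58 nuclear genes of the respiratory chain, 28 were higher and 2 lower, and Sdha of complex II had 598, 553 and 619 CPM, against 255, 264 and 261 CPM at P5 (1.18 ± 0.06). Of 76 cytosolic ribosomal protein genes, 30 were lower and 8 higher than at P5, and 21 were higher and 2 lower than at 3 weeks. Rplp0 of the ribosomal stalk had 241, 208 and 216 CPM, against 613, 611 and 560.2 CPM at P5 (-1.42 ± 0.10). With P5 replicate 3 as the only P5 library, 15 ribosomal genes were lower and 16 respiratory genes higher.

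Of 16 thyroid hormone response genes, 9 were higher and 4 lower than at P5. Hr, a nuclear receptor corepressor that thyroid hormone induces, had 35, 44 and 46.6 CPM at 6 months, against 8.93, 9.72 and 7.99 CPM at P5 (2.24 ± 0.13), and 56.4, 51.4 and 72.9 CPM at 3 weeks. Of 16 glucocorticoid genes, 11 were higher and 4 lower: the receptor gene Nr3c1 rose (1.39 ± 0.11) and Cdkn1a fell (-3.85 ± 0.22). Of 20 endothelial genes, 9 were higher and 4 lower. The transporter gene Slco1a4 of the blood-brain barrier had 49.7, 54.5 and 62.5 CPM at 6 months, against 9.43, 7.33 and 9.47 CPM at P5, and Kdr, the receptor of vascular growth factor, was lower (-1.36). Of 12 iron genes, 6 were higher and 4 lower, with the heavy ferritin chain Fth1 higher (2.01) and the light chain Ftl1 lower (-1.50). Of 18 immediate early genes, 7 were higher and 0 lower, among them Fosb (3.15).

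Of 17 midbrain and hindbrain genes, 7 were higher and 1 lower at 6 months than at P5. Without 6-month replicate 34, 3 were higher and 5 lower. The choroid plexus list summed to 357 to 1739 CPM at 6 months and 85.2 to 466 CPM at P5, with 3 genes higher and 1 lower, and the striatal list to 444 to 1069 CPM at 6 months and 519 to 787 CPM at P5, with 2 higher and 3 lower.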
